A study of Saccharomyces cerevisiae with 34 samples.

Results

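The signal recognition particle (SRP) and its receptor were examined through 8 genes of Saccharomyces cerevisiae, chosen by name: SRP54, SEC65, SRP14, SRP21, SRP68 and SRP72 for the protein subunits of the particle, and YDR292C and YKL154W, which encode Srp101p and Srp102p, for the receptor. All 8 of these genes were found among the 6679 in each of both deposited tables, and all 8 passed the filter on low values.

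SRP binds a signal sequence or membrane segment as it leaves the ribosome, slows elongation, and docks at its receptor on the endoplasmic reticulum (ER), where the ribosome is handed to the Sec61 channel. The particle has a signal-binding part, with the GTPase Srp54 and with Sec65, the counterpart of mammalian SRP19, and an elongation-slowing part with Srp14 and Srp21. Srp68 and Srp72 hold the parts together on the SRP RNA, and the receptor pairs the GTPase Srp101p with its membrane anchor Srp102p. Unfolded proteins in the ER activate Ire1, which splices HAC1 mRNA so that the transcription factor Hac1 is made; this is the unfolded protein response of yeast.

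The data were 34 libraries from SK1 cells in rich medium, each of mRNA or of ribosome footprints, the fragments that ribosomes protect. In the auxin experiment (22 libraries), strains with TIR, the plant auxin receptor used to degrade a tagged protein, and strains with no TIR received 500 µM auxin with 4 µM IP6, or a DMSO and water vehicle, for 15 min before 5 mM DTT, which reduces disulfide bonds. Its groups were TIR with auxin and DTT, called Hac1 depleted here, no TIR with auxin and DTT (Hac1 retained), TIR with vehicle and DTT, no TIR with vehicle and DTT, and auxin alone in TIR and in no-TIR cells. Each had 1 library at 1 h and 1 at 2 h per molecule, except auxin alone in no-TIR cells, with 1 h only. The series' text gives the Hac1-depleted and wild-type states; the labels describe neither the tag on Hac1 nor the promoter of TIR. In the deletion experiment (12 libraries), a hac1 deletion strain and WT received 5 mM DTT, 2 µg/mL tunicamycin (Tm, which blocks N-glycosylation) or no treatment, with 1 library per strain, treatment and molecule, and no test was made there. Subcultures were split from a culture per strain, and nothing says that the 1 h and 2 h libraries came from separate cultures, so p-values measure the spread between these libraries only.

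Estimated depth in megareads (M) was 10.2 to 32.3 M mRNA reads and 6.4 to 36.4 M footprint reads per library in the auxin experiment, and 15.9 to 18.9 and 8.3 to 27.3 M in the deletion experiment. The 8 genes had an estimated 720 to 12732 mRNA reads and 180 to 7429 footprint reads in a library. RPKM values (reads scaled by gene length and library size) are shares of a library, so a change in the total mRNA of a cell cannot be seen in them. HAC1 mRNA was at 5.4 to 42.1 RPKM in the hac1 deletion strain, against 2372 to 5216 RPKM in WT. In the auxin experiment it was at 22574 to 29191 RPKM with DTT and 5829 to 6222 RPKM without. HAC1 footprints under DTT were 4544 and 4574 RPKM in Hac1-depleted cells and 5804 and 5310 RPKM in Hac1-retained cells, at 1 h and 2 h. Neither value measures Hac1 protein, so its depletion cannot be seen in these data. The mRNA library of Hac1-depleted cells at 1 h of DTT stood apart in its dependence on coding length: genes of 2000 nt or more lay 0.50 above genes under 1000 nt, on a log2 scale centred per gene, against -0.23 to 0.15 in the other 10 mRNA libraries and -0.07 to 0.06 in the 11 footprint libraries. Under DTT the median gene shifted upward, by 0.24 (log2, mRNA) and 0.34 (footprints) in Hac1-retained cells and by 0.26 and 0.29 in Hac1-depleted cells. Changes under DTT are therefore given as deposited and after median-ratio scaling, which brings the median gene to between -0.02 and 0.01.

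SRP14 had the most mRNA of the 8 genes in every library, with a median of 1409 RPKM in the auxin experiment and 1537 RPKM in the deletion experiment, and its range did not overlap that of the next gene. Behind it, in the auxin experiment, came SRP68 (median 767 RPKM), SRP54 (718), SEC65 (686), SRP21 (581), SRP72 (545), YDR292C (496) and YKL154W (488). These ranges overlapped between each pair of neighbours, and YDR292C lay above YKL154W in 6 of 11 libraries. Footprints spread the genes further apart. SRP14 led with a median of 723 RPKM, followed by SRP21 (521), SEC65 (489), SRP54 (399.5), SRP72 (299), SRP68 (260.1), YDR292C (175) and YKL154W (115). Here SRP54 and SRP72, SRP68 and YDR292C, and YDR292C and YKL154W were neighbours whose ranges did not overlap over the 11 footprint libraries. Members of the particle thus carried more footprints per length than both receptor genes in all 17 footprint libraries.

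**Figure D1:**
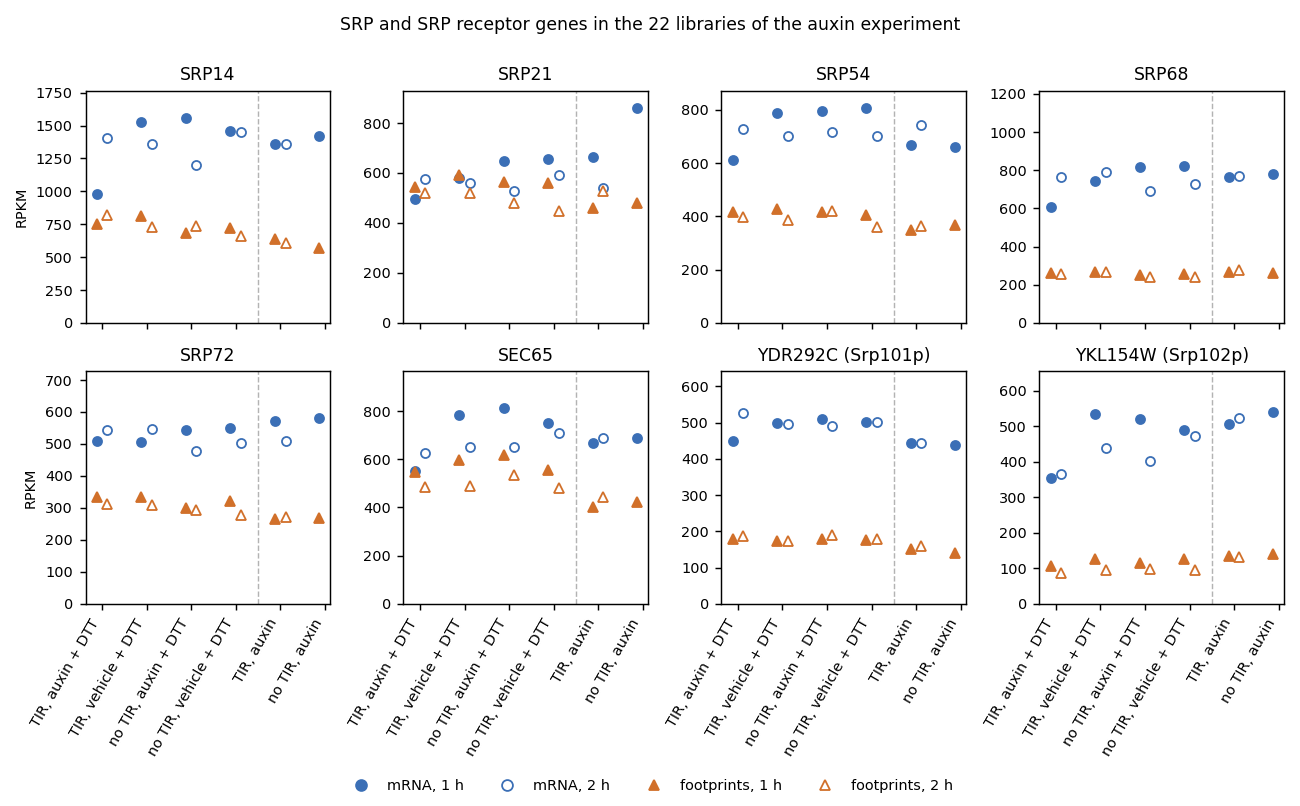
mRNA (circles) and footprint (triangles) levels in RPKM of the 8 genes in each library of the auxin experiment, at 1 h (filled) and 2 h (open), with the groups given DTT left of the dashed line. YKL154W footprints lie at 86.5 to 127 RPKM in the 8 libraries with DTT and at 132 to 139 RPKM in the 3 without.

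The ratio of footprint to mRNA RPKM, a measure of translational efficiency, differed between subunits that act in 1 particle. SRP21 had the highest ratio, with a median of 0.903 (0.558 to 1.10) over the 11 library pairs of the auxin experiment, and SEC65 came next at 0.752 (0.606 to 0.988). SRP72 (0.569), SRP54 (0.541) and SRP14 (0.496) were intermediate. YDR292C (0.353) and SRP68 (0.338) were low, and YKL154W, the membrane anchor of the receptor, was lowest at 0.245 (0.200 to 0.297). YKL154W stood between the 5.3 and 11.2 percentile of all genes tested in each of these pairs, and its range did not meet that of SRP68. In the pairs of the deletion experiment it stood between the 9.5 and 16.1 percentile. SRP68 and SRP72, whose products bind each other, had more SRP68 than SRP72 mRNA in every library (1.20 to 1.75 times), but their footprint ratio was 0.78 to 1.15. The order of the medians was the same over the 6 pairs of the deletion experiment except that SRP68 and YDR292C changed places, at 0.410 and 0.399. SEC65 and SRP72 lay close there, at medians of 0.675 and 0.660, and SEC65 was above SRP72 in 2 of 6 pairs.

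**Figure D2:**
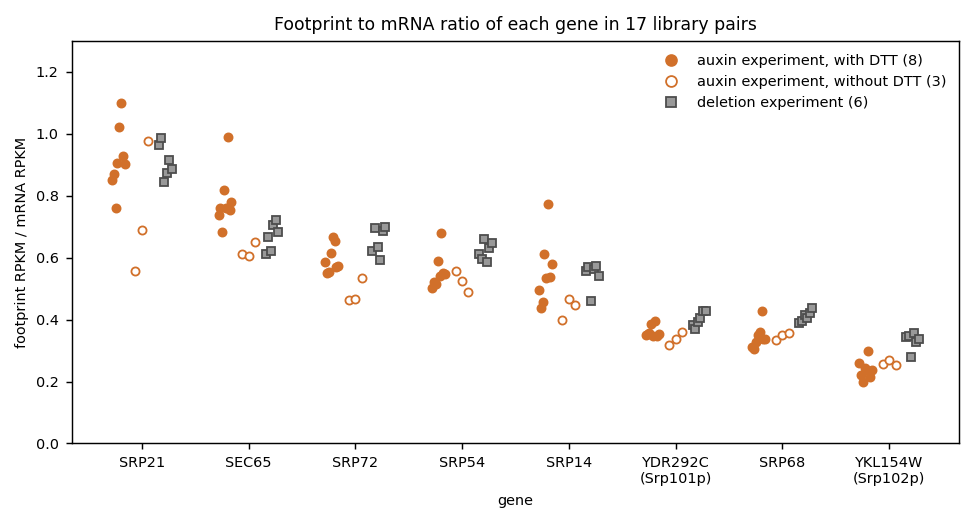
Footprint RPKM divided by mRNA RPKM of each gene in the 17 library pairs, with genes ordered by their median in the auxin experiment. By median, SRP21 and SEC65 lie highest and YKL154W lowest. YKL154W spans 0.200 to 0.297 in the auxin experiment and 0.280 to 0.355 in the deletion experiment.

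The question of the auxin experiment was which genes depend on Hac1 under DTT. None of the SRP or receptor genes passed the test. For mRNA, 0 of 8 genes were called between Hac1-depleted and Hac1-retained cells under DTT, beside 6.08% of all genes. Calls were made at a limma adjusted p under 0.05 (Benjamini-Hochberg over all genes). At such a share, 0 of 8 does not set these genes apart from others. The 8 log2 changes ran from -0.34 to 0.04, with a median of -0.16 beside 0.02 over all genes, and the lowest limma adjusted p was 0.196. For footprints, 0 of 8 genes were called beside 9.61% of all genes, with changes from -0.16 to 0.15, a median of 0.00 beside 0.02, and a lowest limma adjusted p of 0.407. For the footprint to mRNA ratio, 0 of 8 were called beside 0.357%, with changes from 0.02 to 0.37 and a lowest limma adjusted p of 0.332. The 95% intervals of the 8 genes spanned -0.67 to 0.35 for mRNA, -0.42 to 0.38 for footprints and -0.27 to 0.73 for the ratio. At an unadjusted p under 0.05, YKL154W mRNA (-0.34 ± 0.15, SE) and the SRP14 ratio (0.37 ± 0.17, SE) passed. With the effect of auxin in no-TIR cells subtracted from that in TIR cells, again 0 of 8 were called in any measure, beside 0.921% (mRNA), 1.8% (footprints) and 0.131% (ratio) of all genes. Leaving out 1 library, scaling or the other settings tried called no member in the direct contrast, except that the SRP14 ratio was called (0.69, limma adjusted p = 0.036) without the no-TIR library pair with auxin and DTT at 2 h. Without the 1 h pair of the same cells the SRP14 ratio change was 0.06, and without the 1 h pair of Hac1-depleted cells under DTT it was 0.12 (limma adjusted p = 1 and 0.995).

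Genes of other steps of entry into the ER were counted in the same contrast, where 5.79% of all genes were called lower in footprints and 3.75% in mRNA. These lists were chosen with earlier results of these data known, so their counts are descriptions and no independent comparison. Of the Sec62/Sec63 complex, which takes up finished proteins after translation together with Sec61, 4 of 4 genes had lower footprints in Hac1-depleted cells and 3 of 4 had lower mRNA. SEC66 changed by -0.82 ± 0.15 in footprints (log2, SE), SEC62 by -0.62 ± 0.08, SEC63 by -0.58 ± 0.11 and SEC72 by -0.49 ± 0.09, with limma adjusted p below 0.05. In mRNA, SEC66 fell by 0.91, SEC62 by 0.83 and SEC72 by 0.70 on the log2 scale, and SEC63 had -0.46. Of the 5 channel genes, SEC61, the pore through which SRP-targeted chains pass, fell by 0.60 in footprints. The small channel subunits SBH1 (-0.50) and SSS1 (-0.48) were lower in footprints and in mRNA (-0.56 and -0.66), and SSH1 and SBH2 did not pass. Of the 6 genes of the GET route for tail-anchored proteins, GET3, its targeting ATPase, fell in mRNA (-0.59 ± 0.15, SE) and footprints (-0.44 ± 0.10, SE). None of 4 signal peptidase, 3 SND, 8 ER membrane complex and 7 nascent chain factor genes passed in either measure. The medians of the Sec62/Sec63 list were -0.60 (footprints) and -0.76 (mRNA) beside 0.02 over all genes. The counts for these lists did not differ after median-ratio scaling. The difference between SRP genes and these genes was not tested. Without the no-TIR library with auxin and DTT at 1 h, 6 of 6 mRNA calls and 8 of 8 footprint calls were lost, with SEC62 at -0.71 in mRNA and -0.61 in footprints (limma adjusted p = 0.0626 and 0.0602). Without the 1 h library of Hac1-depleted cells, which stood apart in mRNA, 5 of 6 mRNA calls were lost (SEC66 at -0.74, SSS1 at -0.52 and SEC72 at -0.46, limma adjusted p = 0.16, 0.34 and 0.413), as were 5 of 8 footprint calls, while SEC62 had -0.79 in mRNA (limma adjusted p = 0.0442). Without the 2 h library of Hac1-depleted cells, 2 of 6 mRNA calls and 6 of 8 footprint calls were lost, and leaving out any other library lost 0 to 4 mRNA calls and 0 to 5 footprint calls. A model without the hour lost 4 of 6 mRNA calls and 5 of 8 footprint calls, those of SEC61, SEC63, SBH1, SSS1 and GET3. With the effect of auxin in no-TIR cells subtracted, SEC62 footprints (-0.69, limma adjusted p = 0.034) were the sole call among the 37 genes, and the other 13 values called in the direct contrast had limma adjusted p of 0.0809 to 0.565.

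**Figure D3:**
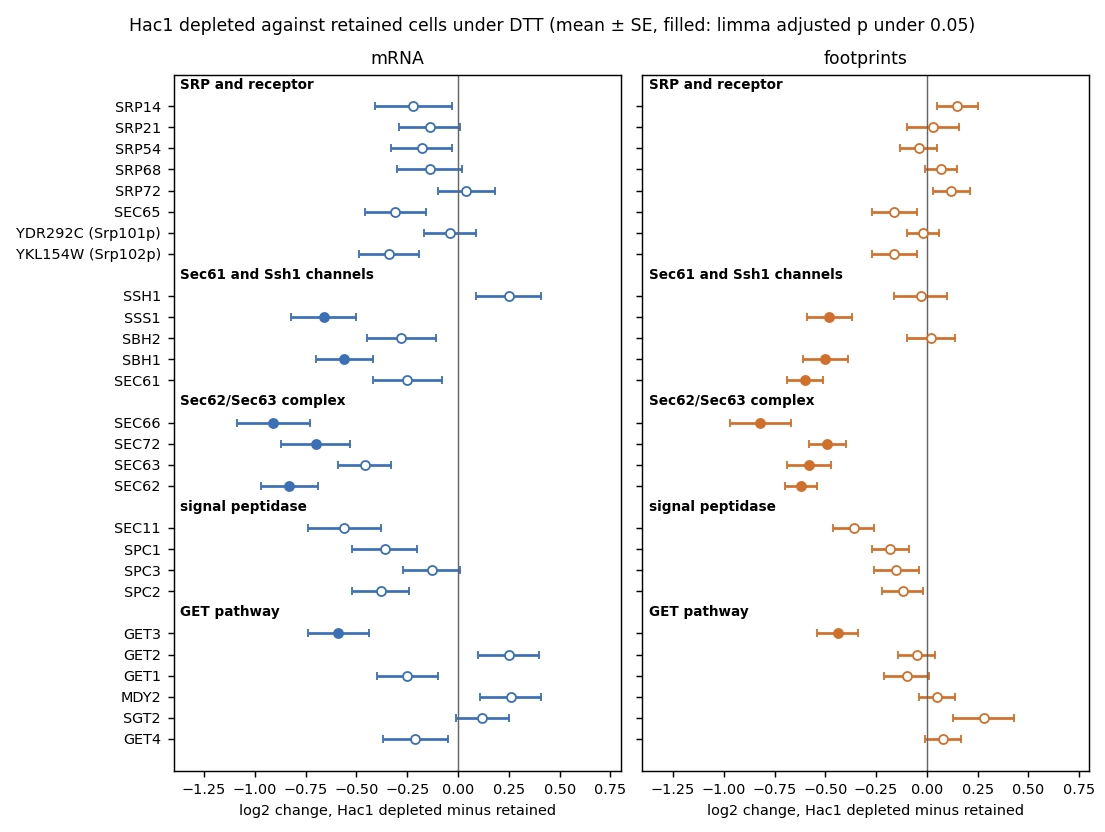
Log2 change between Hac1-depleted and Hac1-retained cells under DTT, with SE bars, for mRNA (left) and footprints (right), of the SRP and receptor genes above 4 other lists of targeting and translocation genes. Filled points passed the limma test at an adjusted p under 0.05; none of the 8 SRP and receptor genes is filled, and all 4 Sec62/Sec63 footprint points are.

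The DTT response with Hac1 retained was taken in no-TIR cells, as auxin and DTT against auxin alone. There, 0 of 8 SRP genes were called in mRNA beside 40.6% of all genes. SEC65 and YDR292C rose in footprints, 2 of 8 beside 47.5% of all genes called higher. With Hac1 depleted (TIR, the same pair of treatments), YKL154W mRNA fell, 1 of 8 beside 17.5% called lower, and footprints of SRP14, SRP72 and YDR292C rose, 3 of 8 beside 49.6%, while YKL154W footprints fell, 1 of 8 beside 19.8%. The no-TIR group without DTT had 1 library per molecule, so each test with Hac1 retained took its spread from the other groups and assumes that the lone library varies like them. After median-ratio scaling, 0 of 8 rose in either comparison, beside 16.2% (mRNA) and 26.5% (footprints) of all genes with Hac1 retained and 26.6% and 31.3% with Hac1 depleted. Lower after scaling were 1 of 8 in mRNA (SRP21) and 2 of 8 in footprints (SRP68 and YKL154W) with Hac1 retained, beside 18.5% and 26.7% of all genes. With Hac1 depleted 4 of 8 were lower in mRNA (SRP21, YKL154W, SEC65 and SRP68), beside 27.2%. The same pair, SRP68 and YKL154W, was lower in footprints, beside 33.3%. Coding lengths are 504, 735 and 822 nt for SRP21, YKL154W and SEC65, and 1800 nt for SRP68. The 1 h mRNA library of Hac1-depleted cells, where genes under 1000 nt lay below longer ones, was not left out of any scaled fit. A part of coding length in these values was not tested. The median of the 8 genes was -0.05 (mRNA) and 0.20 (footprints) with Hac1 retained, beside 0.24 and 0.34 over all genes, and -0.17 and 0.21 with Hac1 depleted, beside 0.26 and 0.29. In the footprint to mRNA ratio, 0 of 8 were called with Hac1 retained beside 3.77% of all genes. SEC65 and SRP14, with coding lengths of 822 and 441 nt, rose with Hac1 depleted, 2 of 8 beside 14.4% called higher. Both ratio calls were lost without the library pair that holds the mRNA library that stood apart, where SEC65 had 0.30 and SRP14 0.30 (limma adjusted p = 0.326 and 0.418). They were also lost without either pair of auxin alone in TIR cells, with SEC65 at 0.39 and 0.58 (limma adjusted p = 0.199 and 0.0837) and SRP14 at 0.58 and 0.53 (limma adjusted p = 0.109 and 0.172) without the 1 h and the 2 h pair. The SRP14 ratio did not pass after scaling (0.50, limma adjusted p = 0.0605) or without the filter (limma adjusted p = 0.0548).

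For Srp102p, the membrane anchor of the receptor, YKL154W footprints were 105 and 86.5 RPKM in Hac1-depleted cells under DTT, 115 and 98.9 in Hac1-retained cells under DTT, 126 and 94.3 in TIR cells with vehicle and DTT and 127 and 94.1 in no-TIR cells with vehicle and DTT, in each case at 1 h and then 2 h. With auxin and no DTT they were 136 and 132 RPKM in TIR cells and 139 in no-TIR cells. In the 4 groups with DTT the 2 h value was below the 1 h value, as also held for SRP21, SEC65, SRP68 and SRP72 footprints. The share of all genes with this order was not counted. YKL154W footprints in every library with DTT lay below those in every library without it, which 18.6% of all genes also showed. Footprints changed by -0.49 ± 0.11 (SE) with Hac1 depleted (limma adjusted p = 0.00423) and had -0.24 ± 0.14 (SE) with Hac1 retained (limma adjusted p = 0.158). After median-ratio scaling the changes were -0.80 and -0.58, and both passed (limma adjusted p = 3.16e-04 and 0.00713). The call with Hac1 depleted held without each of the 11 libraries in turn, and its limma adjusted p was 0.0596 in a model without the hour.

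YKL154W mRNA was 354 and 366 RPKM in Hac1-depleted cells under DTT, 519 and 403 in Hac1-retained cells under DTT, 533 and 438 in TIR cells with vehicle and DTT and 488 and 471 in no-TIR cells with vehicle and DTT. It was 505 and 524 RPKM in TIR cells and 540.4 in no-TIR cells with auxin alone. Hac1-depleted cells under DTT had the lowest values of all groups, and no-TIR cells with vehicle and DTT also lay below every library without DTT. The other groups with DTT overlapped the libraries without it. Between Hac1-depleted and Hac1-retained cells under DTT, the log2 change of -0.34 ± 0.15 (SE) was not called (limma adjusted p = 0.196). Nor was the difference of the auxin effects (-0.35, limma adjusted p = 0.68). Against auxin alone, the change under DTT was -0.51 ± 0.15 (SE) with Hac1 depleted (limma adjusted p = 0.0112). With Hac1 retained it was -0.18 ± 0.19 (SE) (limma adjusted p = 0.459). After scaling the changes were -0.77 and -0.43 (limma adjusted p = 0.0014 and 0.105). As deposited and without the 1 h library of Hac1-depleted cells that stood apart, the first was -0.41 (limma adjusted p = 0.09), and without the 2 h library of auxin alone in TIR cells also -0.41 (limma adjusted p = 0.1).

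YDR292C encodes Srp101p, the GTPase that meets Srp54 at the membrane. Its footprints were 178 and 186 RPKM in Hac1-depleted cells under DTT, 179.7 and 190.5 in Hac1-retained cells under DTT, 174 and 172 in TIR cells with vehicle and DTT and 175 and 178 in no-TIR cells with vehicle and DTT. They were 150.1 and 159.9 RPKM in TIR cells and 139.7 in no-TIR cells without DTT. The 8 libraries with DTT lay above the 3 without, which held for 49% of all genes. The rise was 0.38 ± 0.10 (SE) with Hac1 retained against the 1 library without DTT (limma adjusted p = 0.00982) and 0.23 ± 0.08 (SE) with Hac1 depleted (limma adjusted p = 0.0258). On median-ratio scaling it became 0.04 and -0.08, with neither passing. Without the no-TIR library with auxin and DTT at 1 h, the limma adjusted p with Hac1 retained was 0.0522. The call with Hac1 depleted was lost without 5 of the 11 footprint libraries, singly: either library of Hac1-depleted or Hac1-retained cells under DTT, or the 1 h library of auxin alone in TIR cells (0.21 to 0.24, limma adjusted p = 0.055 to 0.106). In mRNA, YDR292C had 449.9 to 526 RPKM with DTT and 439.7 to 444 RPKM without, also with no overlap, as did 40% of all genes in that direction, and no change passed.

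The ratio of the receptor genes, YDR292C (Srp101p) to YKL154W (Srp102p), does not depend on library scaling. In footprints it was 1.70 and 2.15 in Hac1-depleted and 1.56 and 1.93 in Hac1-retained cells under DTT, and 1.38 and 1.83 (TIR) and 1.38 and 1.89 (no TIR) with vehicle and DTT, at 1 h and 2 h. With auxin alone it was 1.11 and 1.21 in TIR cells and 1.00 in no-TIR cells. All 8 values with DTT exceeded the 3 without. This follows from the YDR292C footprints, all higher with DTT, and the YKL154W footprints, all lower, so it adds no separate result. The share of gene pairs separated in this way was not counted. In mRNA the ratio was 0.94 to 1.44 with DTT and 0.81 to 0.88 without. In the deletion experiment the footprint ratio was 1.52 with DTT, 1.05 with Tm and 1.05 untreated in the hac1 deletion strain, and 1.23, 1.36 and 1.01 in WT. DTT values were above the untreated value in both strains, and the Tm value only in WT, each from 1 library. This pair was singled out after its values had been seen, so its ratio is a description.

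**Figure D4:**
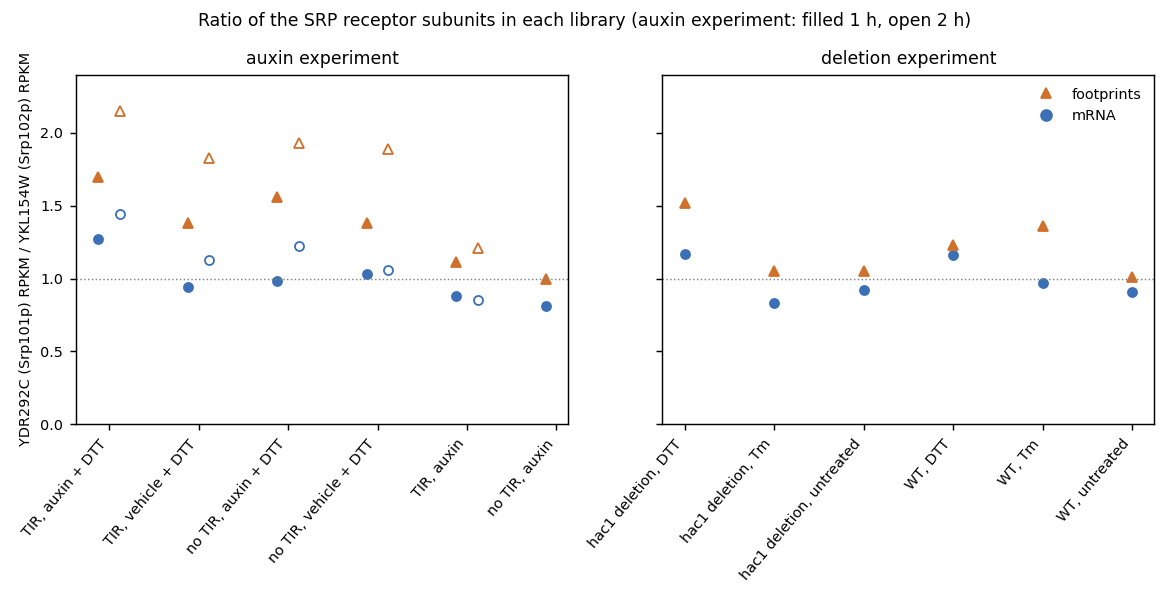
Ratio of YDR292C to YKL154W in RPKM for footprints (triangles) and mRNA (circles) in each library of the auxin experiment (left, 1 h filled and 2 h open) and the deletion experiment (right). In the auxin experiment, footprint ratios with DTT span 1.38 to 2.15 and those without DTT 1.00 to 1.21.

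Srp54 reads the signal sequence. SRP54 footprints were 416 and 399.5 RPKM in Hac1-depleted cells under DTT, 416 and 422 in Hac1-retained cells under DTT, 427 and 386 in TIR cells with vehicle and DTT and 405 and 362 in no-TIR cells with vehicle and DTT. They were 349.6 and 364 RPKM in TIR cells and 369 in no-TIR cells without DTT, and the groups overlapped. The log2 change under DTT was 0.19 ± 0.09 (SE) with Hac1 depleted and 0.21 ± 0.11 (SE) with Hac1 retained (limma adjusted p = 0.0883 and 0.143), and neither passed. Without the 2 h library of auxin alone in TIR cells, the first was 0.27 and passed (limma adjusted p = 0.0368). SRP54 mRNA ranged from 614 to 808 RPKM with DTT and from 662.5 to 742 RPKM without.

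SEC65 footprints, from the gene for the subunit that helps Srp54 onto the RNA, were 546 and 486 RPKM in Hac1-depleted cells under DTT, 619 and 533 in Hac1-retained cells under DTT, 596 and 489 in TIR cells with vehicle and DTT and 554 and 482 in no-TIR cells with vehicle and DTT. Without DTT they were 403 and 445 RPKM in TIR cells and 421 in no-TIR cells. All DTT libraries were above all others, which held for 49% of all genes. With Hac1 retained, against the 1 no-TIR library without DTT, SEC65 rose by 0.52 ± 0.14 (SE) (limma adjusted p = 0.0138), and with Hac1 depleted it had 0.28 ± 0.11 (SE) (limma adjusted p = 0.0541). After scaling the values were 0.18 and -0.03, both past no threshold. The Hac1-retained call was lost without the no-TIR library with auxin and DTT at 1 h (0.46, limma adjusted p = 0.0908), and in a model without the hour (0.45, limma adjusted p = 0.0649). With Hac1 depleted, the value was 0.46 and passed (limma adjusted p = 0.00234) without the 2 h library of auxin alone in TIR cells, and was 0.10 (limma adjusted p = 0.306) without the 1 h one. SEC65 mRNA was 552 and 624 RPKM in Hac1-depleted cells under DTT, 814 and 651 in Hac1-retained cells under DTT, 785 and 650.0 in TIR cells with vehicle and DTT and 750.0 and 708 in no-TIR cells with vehicle and DTT. After scaling, SEC65 mRNA passed as lower with Hac1 depleted, at -0.46 (limma adjusted p = 0.0286). Its lowest value, 552 RPKM, came from the library that stood apart, and mRNA with auxin alone was 666 and 686 RPKM in TIR cells and 688 in no-TIR cells.

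SRP14 and SRP21 belong to the part of the particle that slows elongation. SRP14 footprints were 755 and 817 RPKM in Hac1-depleted cells under DTT, 681 and 734 in Hac1-retained cells under DTT, 815 and 733 in TIR cells with vehicle and DTT and 723 and 665 in no-TIR cells with vehicle and DTT. With auxin alone they were 636 and 608 RPKM in TIR cells and 569 in no-TIR cells, below all 8 libraries with DTT. Such a separation was seen for 49% of all genes. The change was 0.34 ± 0.10 (SE) with Hac1 depleted (limma adjusted p = 0.0163) and 0.32 ± 0.13 (SE) with Hac1 retained (limma adjusted p = 0.0532). After scaling it was 0.02 and -0.02. Without the 2 h footprint library of Hac1-depleted cells under DTT the first was 0.25 (limma adjusted p = 0.132), and without the 1 h or the 2 h library of auxin alone in TIR cells the second, again 0.32, passed (limma adjusted p = 0.0401 and 0.0402). SRP14 mRNA was 977 and 1409 RPKM in Hac1-depleted cells under DTT, 1557 and 1198 in Hac1-retained cells under DTT, 1529 and 1361 in TIR cells with vehicle and DTT and 1457 and 1450.0 in no-TIR cells with vehicle and DTT, and 1364 and 1359 RPKM in TIR cells and 1422 in no-TIR cells with auxin alone. The 1 h library of Hac1-depleted cells, which stood apart, was lowest, and libraries with DTT lay on both sides of those without. SRP14 mRNA had -0.21 ± 0.19 (SE) with Hac1 depleted and, without the 2 h library of Hac1-depleted cells under DTT, passed as lower at -0.55 (limma adjusted p = 0.0283).

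SRP21 footprints overlapped between libraries with DTT (448 to 593 RPKM) and without (458 to 526 RPKM), and no change passed except without the 2 h library of auxin alone in TIR cells (0.31 with Hac1 depleted, limma adjusted p = 0.0265). SRP21 mRNA was 495 and 575 RPKM in Hac1-depleted cells under DTT, 649 and 529 in Hac1-retained cells under DTT, 581 and 562 in TIR cells with vehicle and DTT and 658 and 591 in no-TIR cells with vehicle and DTT. Without DTT it was 666 and 539.5 RPKM in TIR cells and 861 in no-TIR cells, the last being the highest SRP21 value in the auxin experiment and the sole library behind the no-TIR comparison. The change was -0.50 ± 0.19 (SE) with Hac1 retained (limma adjusted p = 0.0614) and -0.17 ± 0.15 (SE) with Hac1 depleted (limma adjusted p = 0.365). After scaling both passed as lower, at -0.75 and -0.43 (limma adjusted p = 0.011 and 0.0344). The SRP21 ratio with Hac1 retained was called (0.74, limma adjusted p = 0.0348 and 0.0347) without the 1 h or the 2 h pair of auxin alone in TIR cells.

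SRP68 and SRP72 encode the bound pair that bridges the particle. SRP68 footprints were 260.1 and 258 RPKM in Hac1-depleted cells under DTT, 250.4 and 243 in Hac1-retained cells under DTT, 268 and 267 in TIR cells with vehicle and DTT and 255 and 239 in no-TIR cells with vehicle and DTT. Without DTT they were 268 and 276 RPKM in TIR cells and 261 in no-TIR cells, and the groups overlapped. As deposited, SRP68 footprints had -0.07 ± 0.08 (SE) with Hac1 depleted and -0.07 ± 0.10 (SE) with Hac1 retained. After scaling, both passed as lower, at -0.38 and -0.41 (limma adjusted p = 0.00343 and 0.0105). SRP68 mRNA with Hac1 depleted also passed as lower after scaling, at -0.43 (limma adjusted p = 0.0382). As deposited, SRP68 footprints lay -0.36 and -0.41 from the median gene, and YKL154W -0.78 and -0.58.

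SRP72 footprints were 332 and 312 RPKM in Hac1-depleted cells under DTT, 299 and 294 in Hac1-retained cells under DTT, 336 and 310.2 in TIR cells with vehicle and DTT and 322 and 279 in no-TIR cells with vehicle and DTT. Without DTT they were 266 and 272 RPKM in TIR cells and 269 in no-TIR cells, below every library with DTT. Footprints of 49% of all genes were separated in this way. The rise of 0.26 ± 0.09 (SE) with Hac1 depleted (limma adjusted p = 0.0288) was -0.05 after scaling, and with Hac1 retained the change was 0.18 ± 0.11 (SE) (limma adjusted p = 0.186). Without the 1 h library of auxin alone in TIR cells it was 0.19 (limma adjusted p = 0.0942), and it was lost without 6 other footprint libraries, singly, at 0.25 to 0.27. SRP72 mRNA overlapped between the groups, at 478 to 549.7 RPKM with DTT and 509 to 582 RPKM without. Footprints of SRP68 over those of SRP72 were 0.78 to 0.86 in the 8 libraries with DTT and 0.97 to 1.02 in the 3 without. This ratio was not tested or compared with those of gene pairs at large, so it is a description.

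In the deletion experiment, 0 of 8 SRP and receptor genes passed 1.5-fold in any of the 7 contrasts, in mRNA, footprints or their ratio. In the hac1 deletion strain, DTT against untreated moved 34.1% (mRNA), 37% (footprints) and 4.62% (ratio) of all genes past that fold, and Tm moved 2.6%, 3.12% and 2.63%. In WT, DTT moved 49%, 53.2% and 6.92%, and Tm 31.6%, 33.1% and 4.98%. Between the deletion strain and WT, the shares were 22.6%, 24.4% and 5.35% untreated, 26.2%, 27.8% and 5.54% with DTT, and 35.4%, 39.5% and 6.7% with Tm. With 1 library per strain, treatment and molecule, these are values without a replicate check.

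SEC65 mRNA was 814, 858 and 859 RPKM in the hac1 deletion strain (DTT, Tm and untreated), against 893, 815 and 698 in WT. SEC65 footprints were 586, 586 and 605 RPKM in the hac1 deletion strain (DTT, Tm and untreated), against 595, 505 and 425 in WT. The log2 change under DTT was -0.08 (mRNA) and -0.05 (footprints) in the deletion strain, and 0.36 and 0.48 in WT. Untreated deletion cells and WT cells under DTT had the highest SEC65 footprints. Deletion cells under DTT lay close, at -0.05 from untreated deletion cells and -0.02 from WT cells under DTT. Both differences were within the 95% counting error of 0.08.

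YKL154W (Srp102p) footprints were 167, 204 and 192 RPKM in the hac1 deletion strain (DTT, Tm and untreated), against 166, 138 and 165 in WT. They changed by -0.20 with DTT and 0.09 with Tm in the deletion strain, and by 0.01 and -0.25 in WT, beside medians over all genes of 0.18, 0.10, 0.35 and 0.12. The 95% counting error of these YKL154W changes was 0.15 to 0.25. YDR292C footprints were 253, 214 and 202 RPKM in the hac1 deletion strain (DTT, Tm and untreated), against 204, 188 and 166 in WT. DTT changed them by 0.33 in the deletion strain and 0.30 in WT.

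SRP68 mRNA was 930.1, 1127 and 1116 RPKM in the hac1 deletion strain (DTT, Tm and untreated), against 913, 880.5 and 892 in WT. SRP72 mRNA was 656, 673 and 668 RPKM in the hac1 deletion strain (DTT, Tm and untreated), against 548, 503 and 545 in WT. For SRP68 the deletion strain was higher by 0.32 untreated and 0.36 with Tm, and differed by 0.03 with DTT, within the 95% counting error of 0.04. SRP72 was higher in the deletion strain under each treatment, by 0.26 to 0.42 on the log2 scale. SRP21 mRNA was 749, 838 and 766 RPKM in the hac1 deletion strain (DTT, Tm and untreated), against 574, 703 and 551 in WT. It was likewise higher in the deletion strain throughout, by 0.25 to 0.48. The mRNA of the median gene was also higher in the deletion strain, by 0.21 untreated, 0.09 with DTT and 0.09 with Tm.

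SRP54 mRNA was 768, 728 and 777 RPKM in the hac1 deletion strain (DTT, Tm and untreated), against 792, 647 and 693 in WT. SRP14 mRNA was 1558, 1635 and 1515 RPKM in the hac1 deletion strain (DTT, Tm and untreated), against 1469, 1605 and 1368 in WT. Untreated, all 8 genes were higher in the deletion strain than in WT, by 0.15 to 0.48 in mRNA and 0.10 to 0.51 in footprints, where the median gene was higher by 0.21 and 0.20. After median-ratio scaling, SRP14, SRP54, YDR292C and YKL154W mRNA lay at -0.07 to -0.02 and the other 4 at 0.08 to 0.26.

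**Figure D5:**
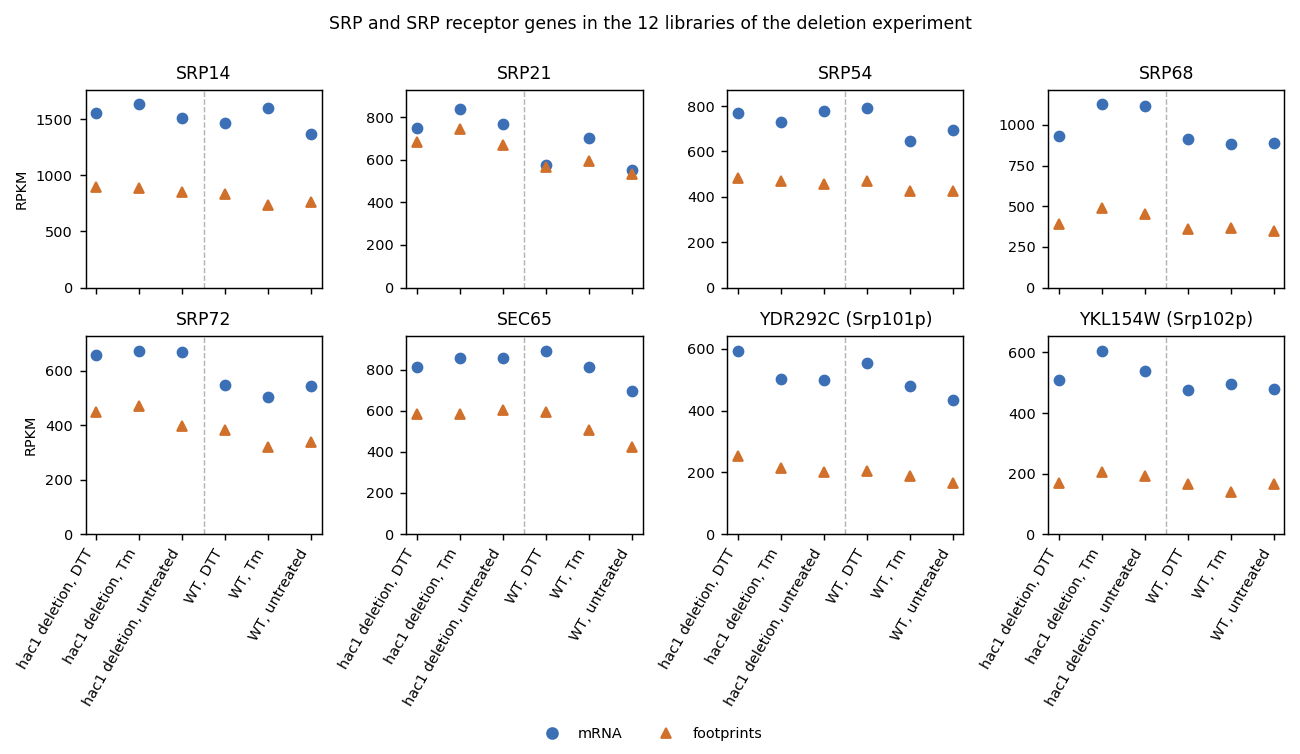
mRNA (circles) and footprint (triangles) levels in RPKM of the 8 genes in the 12 libraries of the deletion experiment, 1 library per point, with the hac1 deletion strain left of the dashed line and WT right of it. SEC65 footprints are 605 RPKM in untreated deletion cells and 425 RPKM in untreated WT cells.

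Over the 17 mRNA libraries, centred within each experiment, no SRP gene had another SRP gene as its nearest in Pearson's r. The nearest were PAA1 for SRP14 (r = 0.90), YJR023C for SRP21 (0.84), GLE2 for SRP54 (0.88), RKM2 for SRP68 (0.90), SAS3 for SRP72 (0.89), GRX7 for SEC65 (0.93), DPH6 for YDR292C (0.96) and RPB3 for YKL154W (0.94). The nearest fellow gene ranked between 17, for SRP14 with SEC65 (r = 0.80), and 1934, for YDR292C with SRP54 (r = 0.62), of 5665 genes. The nearest fellow gene ranked 27 for SRP54, 35 for SRP21, 39 for SEC65, 83 for SRP68, 171 for SRP72 and 192 for YKL154W. How often genes of other sets have a fellow gene as their nearest was not counted. These are descriptions over libraries that share strains, treatments and depth.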

How the data were processed

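The authors deposited a value per gene and library in RPKM for 34 libraries of mRNA or ribosome footprints; the header names the unit in the deletion table, and in the auxin table, whose header names none, it was inferred from the values. Bowtie2, CASAVA and bcl2fastq 2.17 are named in the submitters' processing notes without a role; no source here gives the counting rule, strand use or genome build, so reads of overlapping genes cannot be told apart and no coordinates are given. Depth was estimated from the whole-read steps of low values (78.5% to 87.4% whole within 0.02, with lengths shortened by 60 nt). Libraries were grouped by title. In the deletion experiment the molecule label is the reverse of the titles and column names, and titles were followed.

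log2(RPKM + 1) values were tested, for genes averaging 5 RPKM or more, with limma 3.58.1 in R 4.3.3 (moderated test with trend, group and hour as terms, two-sided, Benjamini-Hochberg over all genes). The design was fitted over all 11 libraries of a molecule, and the footprint to mRNA ratio was the difference of both logs in matched libraries. All fold changes are on that scale and understate those of low genes. The hour, a labelled time, served as the replicate block, and 2 h minus 1 h deviations were correlated across genes over 10 pairs of groups. Between groups with DTT the correlations were 0.59 to 0.77 (footprints) and 0.25 to 0.61 (mRNA). Between auxin alone in TIR cells and the groups with DTT they were 0.02 to 0.06 and -0.09 to 0.19. A single hour term was fitted to all groups, so it may not describe cells without DTT, of which the no-TIR cells had 1 h only. Alternatives were a pseudocount of 0.1, no filter, median-ratio scaling, no hour term and leaving out each library. The code was tested on simulated data. Members and lists were chosen with earlier results of these data known. The genes named were all 8 members in every group, the nearest gene of each by Pearson's r, and those of 37 other targeting and translocation genes called between Hac1-depleted and Hac1-retained cells. Names of 5994 of 6679 gene IDs came from RefSeq (assembly R64). The receptor genes are given by systematic name. Sequences were not used here.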

Additional observations from a re-analysis of the deposited data

Results flagged for a closer look

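SEC65 mRNA had changes of opposite sign under DTT in the strains of the deletion experiment: the log2 change was -0.08 in the hac1 deletion strain and 0.36 in WT, beside medians over all genes of 0.16 and 0.30. The libraries held 814 RPKM with DTT and 859 RPKM untreated in the deletion strain, and 893 RPKM with DTT and 698 RPKM untreated in WT. After median-ratio scaling the changes were -0.20 and 0.05. The difference was not tested, since each value rests on 1 library per strain and treatment. In the auxin experiment, SEC65 mRNA had -0.31 ± 0.15 (log2, SE) between Hac1-depleted and Hac1-retained cells under DTT (limma adjusted p = 0.249).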

How the results depend on the processing

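Among 1416 alternative values for members in the auxin experiment, 1367 stayed on their side of the threshold. Of the rest, 31 lost a call in the same direction, 16 gained one and 2 lost a call and changed sign. Among the 1367, 103 that were called under neither setting changed sign. The 2 values that lost a call and changed sign were footprints under DTT with Hac1 depleted after median-ratio scaling. SRP72 had -0.05 and YDR292C -0.08, with neither called (limma adjusted p = 0.609 and 0.394). Counts of all genes called moved more. With no replicate block (hour left out), the direct contrast of Hac1-depleted and retained cells called 153 genes in mRNA (350 with it) and 201 in footprints (513), and the difference of auxin effects 18 (53) and 27 (96). That difference called 33 mRNA genes with no filter and 4 ratio genes with scaling (7 without). Leaving out 1 library gave 125 to 458 and 126 to 946 genes in the direct contrast (mRNA and footprints), 22 to 67 and 17 to 248 in the difference of auxin effects, and for the ratio 189 to 1426 under DTT with Hac1 depleted (1126 with all), 11 to 218 in the direct contrast (19) and 5 to 11 in the difference (7). The cause was not tested. DTT with Hac1 retained rests on 1 library without DTT, which could not be left out. Depth limited the low footprint counts of YKL154W in the deletion experiment, where the 95% counting error of its changes under DTT or Tm (0.15 to 0.25) was as large as or larger than 3 of the 4 changes.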
